A study of Arabidopsis thaliana with 9 samples.

Results

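The loci described here are the genes at the top of chromosome 4 of Arabidopsis thaliana, on both sides of FRI (AT4G00650). They were chosen by number alone: all loci from AT4G00005 to AT4G04300 in the deposited values, except 8 loci that were left out by rule, FRI among them. This gave 585 of the 33603 loci in the files. In TAIR10.1, 579 of them have a position, from base 1180 to base 2087758 of chromosome 4, and 6 have no match. The rule used no measured value, but the loci were chosen with earlier results of these data known. RNA was sequenced from dissected early heart embryos of 3 genotypes, with 3 libraries each and 20 embryos per library. Col FRI is the Col-0 background with a functional FRI allele. 35S::FCA is Col-0 with a transgene that expresses FCA from the constitutive viral 35S promoter. Col-0, the wild type of the labels, is mutant for FRI. The parents of the Col FRI embryos had 6 weeks of vernalization, and the labels describe no cold for the parents of the 35S::FCA and Col-0 embryos. The FRI allele, the DNA linked to it and the cold of the parents therefore cannot be told apart in these libraries, and the donor of the Col FRI segment is not given in the sources used here.

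FRI (FRIGIDA) is a plant scaffold protein that activates FLC, the repressor of flowering that vernalization silences. A natural allele that is crossed into another accession brings along a stretch of linked DNA from its donor, and how long that stretch is depends on the crossovers in later generations. Genes on a donor stretch can differ from the recurrent parent in their regulatory and transcribed sequence, and transposable elements and non-coding RNAs often differ between accessions. The top of chromosome 4 carries a gene-rich end, with FRI in it, followed by a pseudogene-rich part nearer the heterochromatin of the chromosome arm.

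FRI itself had 150, 137 and 177 estimated counts in Col FRI libraries, 47, 134 and 116 in 35S::FCA libraries and 122, 112 and 70 in Col-0 libraries. All 3 Col FRI libraries were above the others, by 1.21 ± 0.21 (log2, SE) against 35S::FCA and by 1.11 ± 0.21 against Col-0. FCA had 113, 105 and 124 counts in Col FRI libraries, 289, 357 and 382 in 35S::FCA libraries and 227, 186 and 180 in Col-0 libraries, highest in the genotype that carries its transgene. Total estimated counts were 15166826 to 18768286 for Col FRI libraries, 17996274 to 25847613 for 35S::FCA libraries and 20372634 to 24659741 for Col-0 libraries. The flanking loci took 0.982 to 0.995% of these in Col FRI libraries, 0.98 to 1.13% in 35S::FCA libraries and 0.854 to 1.13% in Col-0 libraries. Of 9 embryo markers, 8 were above 1 TPM (a level per transcript length, scaled to the same total in each library) in every library, whereas 0 of 7 endosperm markers and 2 of 6 seed coat markers were. Summed seed coat markers were 5.37 to 5.84 TPM in Col FRI, 7.32 to 7.68 TPM in 35S::FCA and 5.01 to 9.57 TPM in Col-0. Summed endosperm markers were 2.57 to 2.93 TPM in Col FRI, 2.29 to 2.74 TPM in 35S::FCA and 1.47 to 4.66 TPM in Col-0. Their part in the results below was not tested. Col FRI libraries were also closest to each other: the median SD of the flanking loci, on the log2 CPM scale (counts scaled by library size), was 0.0917 in Col FRI, 0.138 in 35S::FCA and 0.182 in Col-0.

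Some of the flanking loci were at or near 0 counts in one set of genotypes and well detected in the other, and the bases before 4 of them are shown because the data bear on whether a transcript was seen at all. Each stretch is the TAIR10.1 sequence of chromosome 4 directly upstream of the annotated start, 150 bases long in the first 3 and the whole space to the next gene in the last, read on the strand of the gene. Capitals mark the letters TATAAA on either strand, the only motif searched (on the other strand it reads TTTATA).

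AT4G00600 (minus strand, chr4:256611-256760): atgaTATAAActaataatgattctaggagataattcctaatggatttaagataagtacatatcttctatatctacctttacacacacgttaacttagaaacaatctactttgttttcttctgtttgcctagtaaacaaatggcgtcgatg

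AT4G01350 (plus strand, chr4:559996-560145): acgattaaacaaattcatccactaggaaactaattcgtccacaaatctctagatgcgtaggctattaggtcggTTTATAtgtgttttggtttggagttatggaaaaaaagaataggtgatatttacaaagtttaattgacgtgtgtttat

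SADHU5-1 (AT4G01525, plus strand, chr4:660660-660809): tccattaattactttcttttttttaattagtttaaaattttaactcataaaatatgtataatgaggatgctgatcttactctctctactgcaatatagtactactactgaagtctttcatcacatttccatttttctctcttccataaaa

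AT4G01593 (plus strand, chr4:690461-690642): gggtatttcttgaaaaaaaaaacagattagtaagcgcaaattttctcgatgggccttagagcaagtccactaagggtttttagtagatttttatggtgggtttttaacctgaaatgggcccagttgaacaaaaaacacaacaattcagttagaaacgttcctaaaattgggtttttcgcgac

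The last stretch, of 182 bases, lies between AT4G01590 on the minus strand and AT4G01593 on the plus strand, so both genes start at its ends. AT4G00600 and AT4G01350 hold 1 match each, and the other stretches hold 0. The motif was held by 32.1% of 150-base windows at the 579 flanking loci with a position, against 32.9% of those at all 32834 loci with one. These matches are a description of the letters and say nothing about any factor. They are the reference letters, and the sequence carried by Col FRI embryos was not read.

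Counts were high enough to test 304 of the 585 flanking loci, among 18585 loci tested in all. Of the 281 not tested, 196 had at most 3 counts in every library, among them 85 with 0 in all libraries, and the highest count of any of them in a library was 27. The tested loci were 293 of the 433 protein-coding genes, 2 of 100 pseudogenes, 1 of 20 transcribed pseudogenes, all 3 lncRNAs, 3 of 6 ncRNAs and both snoRNAs.

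In Col FRI against Col-0, 66 of the 304 loci passed the threshold, an adjusted p under 0.05, with 22 higher and 44 lower. This was 21.7% of the flanking loci, where 13.3% of all loci tested were called. The calls leaned to the lower side, with 14.5% of flanking loci lower against 7.22% of all loci, and 7.24% higher against 6.04% of all loci. Differences of over 2-fold were called at 21 loci, 5 higher and 16 lower. This was 6.91% of the flanking loci, against 2.32% of all loci (0.796% higher and 1.52% lower). The stricter rule of over 2-fold with an adjusted p under 0.001 called 6, or 1.97% against 0.183%. The median fold change of the flanking loci was near 0 (-0.04 on the log2 scale, against -0.01 for all loci), and their median absolute change was 0.25 against 0.22. Without any 1 of the Col FRI libraries fewer loci were called: 30 without replicate 1, 28 without replicate 2 and 28 without replicate 3, where 3.82, 3.27 and 3.19% of all loci were called. Over 2-fold these fits called 15 to 16 flanking loci, or 4.76 to 5.08%, against 0.92 to 1.02% of all loci. Without Col-0 replicate 3 more were called at an adjusted p under 0.05: 84 loci, or 26.8%, against 21.8% of all loci.

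In Col FRI against 35S::FCA, 58 loci differed, 21 higher and 37 lower. This was 19.1% of the flanking loci, where 12.9% of all loci were called, and 12.2% were lower against 5.92% of all loci, 6.91% higher against 7%. Over 2-fold, 20 loci were called, 5 higher and 15 lower, or 6.58% against 3.33% of all loci (1.67% higher and 1.66% lower). The stricter rule called 9, or 2.96% against 0.56%. In the contrast of Col FRI with the mean of both other genotypes 80 loci were called, or 26.3% against 16.9% of all loci. These comparisons share the Col FRI libraries, so they are not independent of each other. Without any 1 Col FRI library the 58 calls became 33 to 35, and without 35S::FCA replicate 3 they became 34, with 5.11 to 5.37% of all loci called in these fits.

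In 35S::FCA against Col-0, the comparison in which both genotypes carry the same FRI allele, edgeR's quasi-likelihood test called 3 of the 304 loci, all higher, and 0 of them by over 2-fold. This was 0.987% of the flanking loci, where 1.52% of all loci were called, and 0.409% by over 2-fold. DESeq2 called 7. At an unadjusted p under 0.05, 43 flanking loci (14.1%) and 18.8% of all loci passed. The 3 were GAE3, a UDP-glucuronate epimerase of cell wall sugar synthesis (0.42, adjusted p = 0.0495), AT4G01730 (0.33, adjusted p = 0.0452) and AT4G03030 (0.81, adjusted p = 0.0352). Leaving out 1 library gave 0 to 24 calls: 24 without Col-0 replicate 3, 5 without 35S::FCA replicate 1, 1 without Col-0 replicate 1 or 2, and 0 without each of the other 5. The shares of all loci called in these fits and in DESeq2 are not given here. Whether the 24, the 5 or the 7 lie above them therefore cannot be read from these counts. AT4G03030 stood at 6.48, 6.75 and 6.36 TPM in Col FRI, 6.98, 7.69 and 6.67 TPM in 35S::FCA and 3.42, 3.79 and 4.24 TPM in Col-0, so it was Col-0 that stood apart there.

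**Figure D1:**
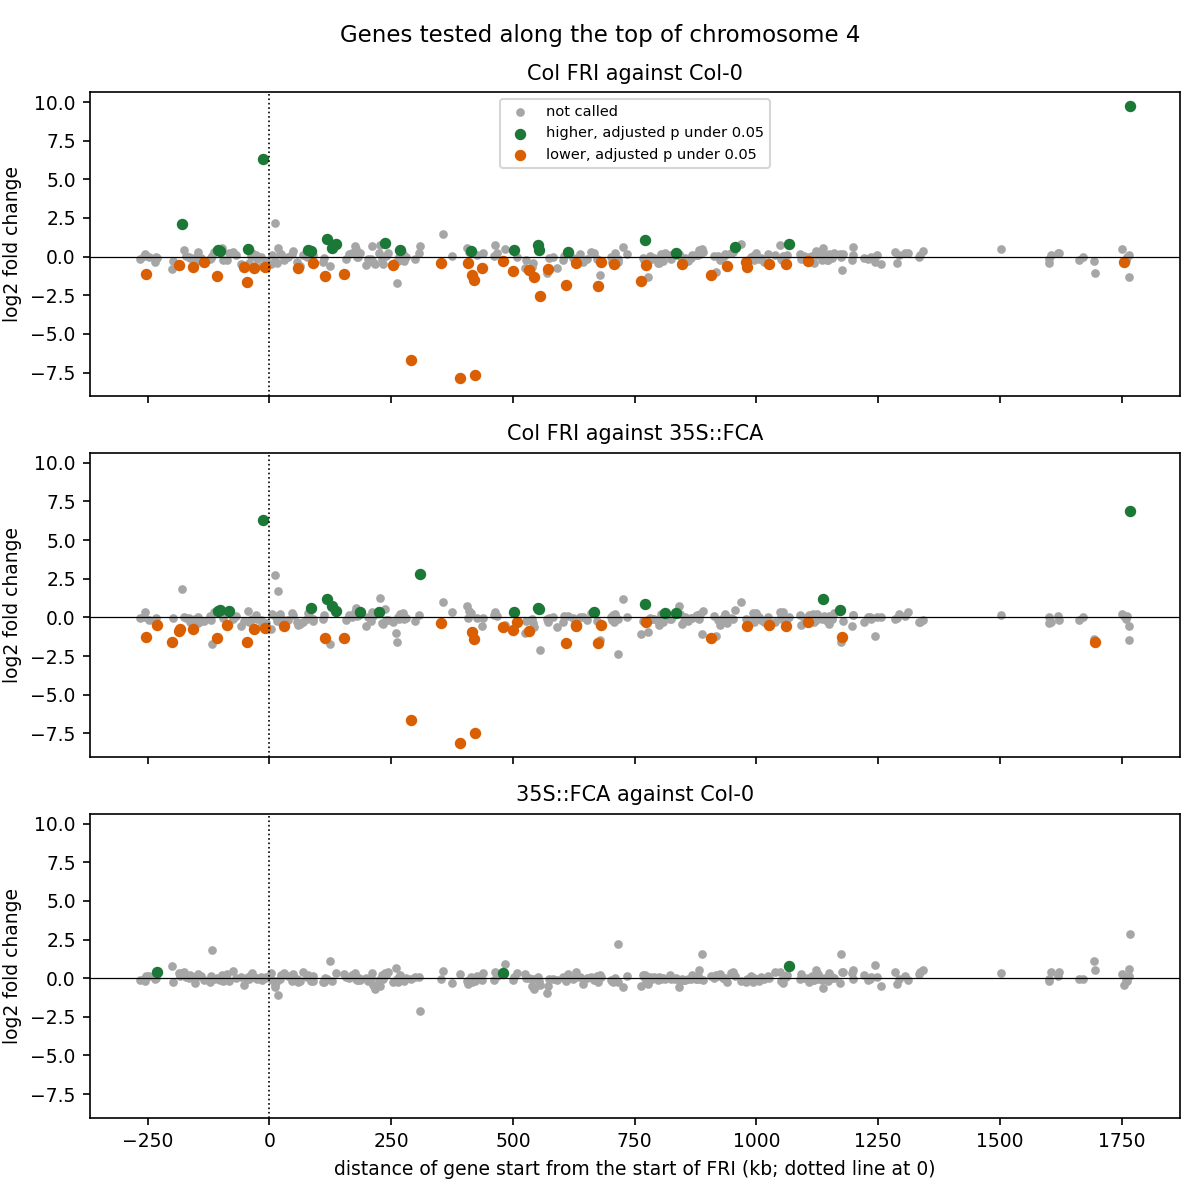
Log2 fold change (vertical axis) of the flanking loci tested against the distance of their start from the start of FRI in kb (horizontal axis), for Col FRI against Col-0, Col FRI against 35S::FCA and 35S::FCA against Col-0, with loci called higher in green, lower in orange and the rest in grey. Calls lie on both sides of FRI in the panels with Col FRI (66 and 58 loci) and are 3 in the panel without it; values beyond 5 belong to loci near 0 counts in one genotype and depend on the prior count of the fit.

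Along the chromosome, the calls began at the first genes of the arm. Against Col-0 the first lower locus of Col FRI was AT4G00040, at base 14627, and the first higher one was JLO, at base 89908. Only 1 stretch of 25 loci or more held no call: the 50 tested loci between AT4G03100 and AT4G04190, which start after 64 of the 66 calls. The last lower locus was AT4G04190, at base 2024445, and the last higher one was AT4G04223, at base 2036511. Over 2-fold, the calls ran from AT4G00040 to IDD12 (AT4G02670), at base 1176000, then none of the next 90 tested loci was called before AT4G04223. Against 35S::FCA, lower loci ran from AT4G00040 to AT4G04090, at base 1964980, and higher ones from ANTR2 (AT4G00370), at base 162897, to AT4G04223. The longest run without a call in that comparison was 28 loci, between AT4G03292 and AT4G04090.

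The tested loci were counted in bins of 25 in number order, with 4 in the last. The first 10 bins, which end at AT4G03115 (base 1385525), held 64 calls of Col FRI against Col-0 among 250 loci, or 25.6%, and 20 of over 2-fold, or 8%. The last 3 bins, from AT4G03120 (base 1385613) on, held 2 calls among 54 loci, or 3.7%, and 1 of over 2-fold, or 1.85%. The border between bins 10 and 11 was set after the calls were seen, so the contrast between them is a description. On the left of FRI 14 of 52 loci (26.9%) were called, and 50 of 198 (25.3%) from FRI to the end of bin 10. The next 150 loci tested on chromosome 4, from AT4G04320 to AT4G09432, had 14 calls (9.33%) and 2 of over 2-fold (1.33%).

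Against 35S::FCA the change along the order was less sharp. The first 10 bins held 53 calls (21.2%) and 16 of over 2-fold (6.4%), while the last 3 held 5 calls (9.26%) and 4 of over 2-fold (7.41%). These 4 were GRH1, AT4G03292, AT4G04090 and AT4G04223. In the 150 loci past them, 17 (11.3%) were called and 3 (2%) by over 2-fold. The share of calls was thus lower past base 1385525 in both comparisons. The share of calls of over 2-fold was lower there only against Col-0, and this difference between the comparisons was not tested. Bins 9 and 10, from base 1120365, already held few calls of over 2-fold, 1 and 0 in each comparison. Bin 3, next to FRI, held 0 in both. Bins 9 and 10 held 3 and 6 calls against Col-0 and 1 and 4 against 35S::FCA. The border therefore does not place the end of the differences.

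Depth of annotation and expression also changed along the order. Between 49% and 92.6% of the loci in the spans of bins 1 to 11 were tested, but 18.5% in the span of bin 12 (25 of 135 loci, 79 of them pseudogenes, bases 1503492 to 2029013). Over that stretch of the arm an end of the differences can be placed only as closely as the tested loci lie. Locus numbers follow position at all but 8 neighbouring pairs.

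**Figure D2:**
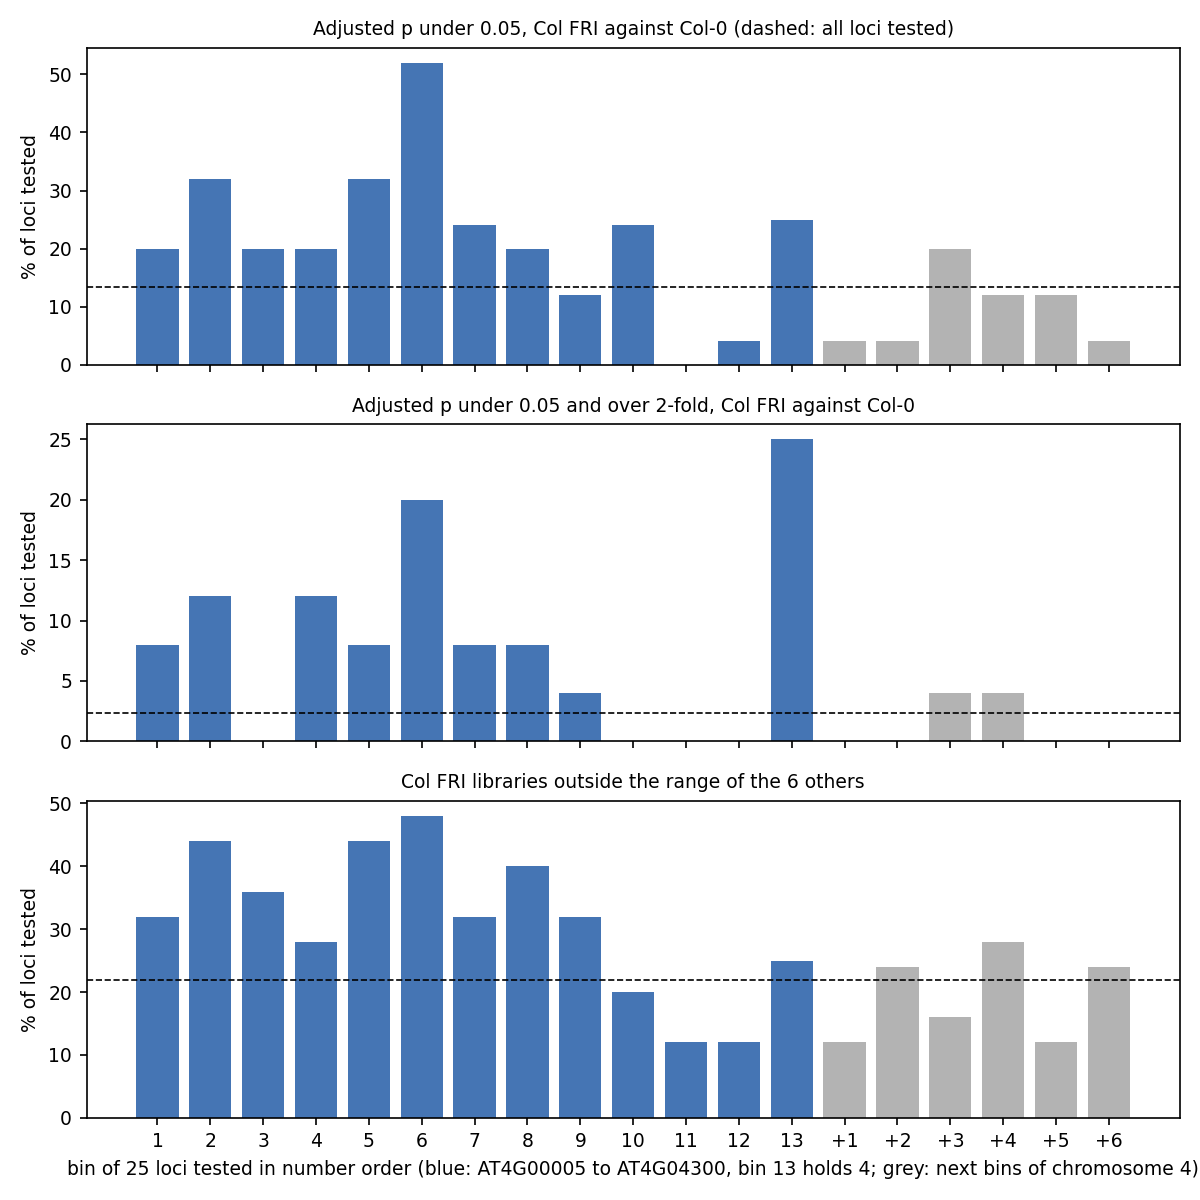
Share of loci tested (vertical axes, %) per bin of 25 loci in number order (horizontal axis) that were called at an adjusted p under 0.05, called by over 2-fold, or had all 3 Col FRI libraries outside the range of the 6 others; blue bars are the flanking loci, grey bars the next 6 bins of chromosome 4, and dashed lines the share of all 18585 loci tested. Bin 6 stands highest among the bins of 25 in the top panel with 13 of 25 loci, and bin 11 has 0; bin 13 holds 4 loci.

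Bin 6, from AT4G01580 to AT4G01935 (bases 685670 to 842364), held 13 calls among its 25 loci in Col FRI against Col-0, 3 higher and 10 lower, with a median log2 fold change of -0.42. Against 35S::FCA it held 10. Over all loci tested, 13.3% were called against Col-0 (6.04% higher and 7.22% lower) and 12.9% against 35S::FCA. The bin is described because its count was the highest. Leaving out each library in turn gave 7 to 15 calls against Col-0 and 7 to 12 against 35S::FCA. In these fits 3.19 to 21.8% of all loci were called against Col-0 and 5.11 to 19.6% against 35S::FCA. In every other full bin the calls were between 0 and 8 in both comparisons.

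The ranges of the libraries were also compared without a model, on the log2 CPM scale. All 3 Col FRI libraries lay outside the range of the 6 other libraries at 96 loci, 40 above and 56 below. This was 31.6% of the flanking loci, where 22% of all loci did so (10.8% above and 11.1% below). On log2 TPM the count was 60, 18 above and 42 below. The shares of all loci are for log2 CPM only, so this count has no such share beside it. On log2 CPM the share was 35.6% in bins 1 to 10 and 13% in bins 11 to 13, against 19.3% in the next 150 loci of chromosome 4. At the tops of chromosomes 1, 2, 3 and 5, over the first 304 loci tested of each, it was 22, 17.4, 21.4 and 22%.

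The same tops give the level of the other counts elsewhere. Against Col-0, 16.8, 12.5, 13.8 and 17.4% of the loci at the tops of chromosomes 1, 2, 3 and 5 were called, and 1.32, 0.329, 3.29 and 2.63% by over 2-fold. Against 35S::FCA, 2.3, 3.29, 3.95 and 2.96% were called by over 2-fold there. The flanking loci, at 6.91 and 6.58%, were above each of these tops in both comparisons.

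Loci that were seen on one side only gave the largest differences. At most 3 counts in every library of one side and over 10 in every library of the other were found at 3 flanking loci, among 13 of all loci in the files. AT4G00600, a protein-coding gene at bases 255320 to 256610, just to the left of FRI, had 45, 41 and 50 counts in Col FRI libraries, 1, 1 and 0 in 35S::FCA libraries and 0, 2 and 0 in Col-0 libraries. Only the Col FRI libraries held more than 2 reads of it. Summed over libraries its rate in Col FRI was 91.2 times that in 35S::FCA (95% exact counting interval 24.8 to 761) and 92.7 times that in Col-0 (25.2 to 773), with adjusted p = 0.000444 against 35S::FCA and 0.000986 against Col-0 in edgeR's quasi-likelihood test. Such intervals hold for counting error alone, because reads of amplified cDNA do not each stand for a molecule of RNA.

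SADHU5-1, a member of a non-coding retroposon family, had 0, 0 and 0 counts in Col FRI libraries, 29, 40 and 49 in 35S::FCA libraries and 47, 32 and 19 in Col-0 libraries. No Col FRI library held a read of it. Taking 3 counts over the group as the limit that a count of 0 allows, it was at least 29.3-fold lower in Col FRI than in 35S::FCA and at least 24-fold lower than in Col-0 (adjusted p = 0.000444 and 0.00112, edgeR).

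The last of these was AT4G01593, a lncRNA annotated as antisense to AT4G01595. It had 2, 0 and 0 counts in Col FRI libraries, 108, 253 and 224 in 35S::FCA libraries and 327, 136 and 174 in Col-0 libraries. Its rate in 35S::FCA was 218 times that in Col FRI (60.1 to 1810) and in Col-0 234 times (64.4 to 1930), with adjusted p = 0.000133 and 0.000174. AT4G01595 overlaps it by 1268 bases on the opposite strand and had 0 counts in Col FRI libraries, 0 to 2 in 35S::FCA libraries and 1 to 7 in Col-0 libraries; the library protocol as described does not mark strand, so reads of the pair cannot be told apart.

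Another 2 loci came close to this pattern. AT4G04223, a ncRNA of unknown function at bases 2036511 to 2037816 and the last locus tested, had 351, 250 and 275 counts in Col FRI libraries, 2, 4 and 4 in 35S::FCA libraries and 1, 0 and 0 in Col-0 libraries. Its rate in Col FRI was 117 times that in 35S::FCA (63.6 to 246) and 1190 times that in Col-0 (214 to 47200), and it had the smallest adjusted p of the flanking loci in both comparisons (3.73e-07 and 1.92e-07). It lies far from the other calls of over 2-fold against Col-0, beyond the 90 uncalled loci. AT4G01350, a gene named after its values were seen, had 0, 0 and 0 counts in Col FRI libraries, 10, 18 and 14 in 35S::FCA libraries and 19, 8 and 15 in Col-0 libraries, which made it at least 10.4-fold and 10.3-fold lower in Col FRI (adjusted p = 0.00591 and 0.0074).

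**Figure D3:**
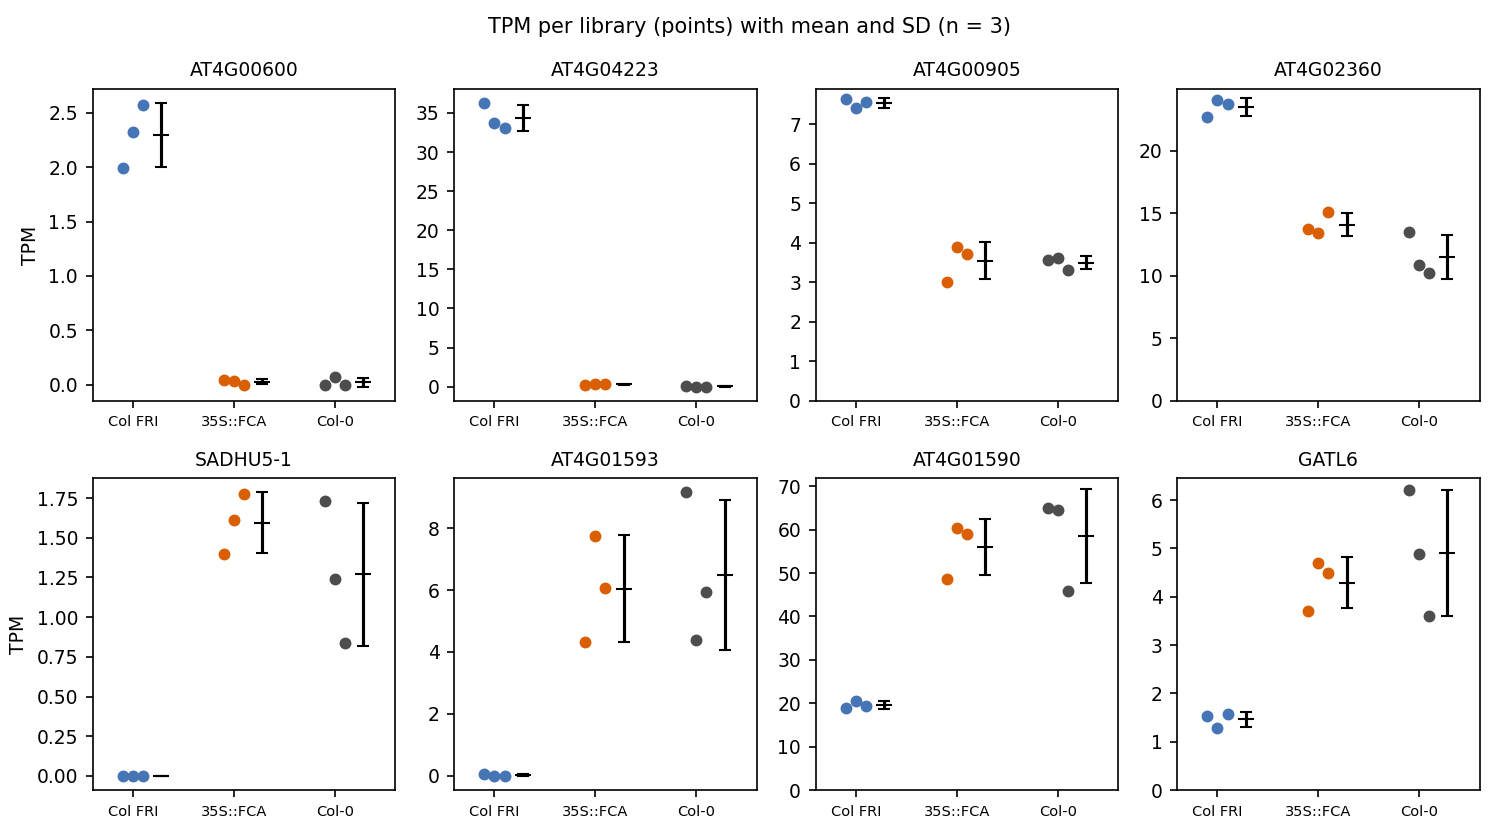
TPM of 8 flanking loci in each library (points, vertical axes, each on its own scale) for Col FRI, 35S::FCA and Col-0, with the mean and SD of the 3 libraries beside them. The Col FRI libraries lie above the 6 others for the loci of the upper row and below them for those of the lower row, with SADHU5-1 at 0 TPM in all 3 Col FRI libraries.

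Beside AT4G01593, its divergent neighbour AT4G01590 was at 18.9, 20.6 and 19.4 TPM in Col FRI, 48.7, 60.4 and 58.9 TPM in 35S::FCA and 65, 64.5 and 46 TPM in Col-0. The groups did not overlap, and the log2 fold change of Col FRI was -1.37 ± 0.08 against 35S::FCA and -1.51 ± 0.08 against Col-0 (adjusted p = 1.54e-05 and 8.3e-06). The next gene, AT4G01580, which encodes a B3-domain protein of the transcription factor kind, was at 55.7, 64 and 63.2 TPM in Col FRI, 115, 141 and 133 TPM in 35S::FCA and 165, 148 and 123 TPM in Col-0. All Col FRI libraries were again the lowest, by -0.96 ± 0.08 against 35S::FCA and -1.21 ± 0.08 against Col-0 (adjusted p = 0.000109 and 4.13e-05). Thus 3 neighbouring loci, in a stretch that begins at base 685670, were lower in Col FRI, and none of these calls was lost under any alternative run.

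Among enzymes and structural genes, GATL6, a putative galacturonosyltransferase of cell wall synthesis, was at 1.54, 1.28 and 1.58 TPM in Col FRI, 3.71, 4.69 and 4.49 TPM in 35S::FCA and 6.2, 4.89 and 3.6 TPM in Col-0. All Col FRI libraries were below the 6 others. The log2 fold change of GATL6 was -1.67 ± 0.15 against 35S::FCA and -1.93 ± 0.15 against Col-0 (adjusted p = 0.000214 and 0.000174, edgeR). CYP86A2, a cytochrome P450 of the fatty acid hydroxylases that make cutin monomers, was at 2.17, 2.26 and 2.14 TPM in Col FRI, 6.41, 5.57 and 5.54 TPM in 35S::FCA and 5.97, 7.04 and 3.67 TPM in Col-0 (-1.31 ± 0.20 against 35S::FCA and -1.28 ± 0.20 against Col-0, adjusted p = 0.0027 and 0.00415). ATPMEPCRB, a pectin methylesterase, was low everywhere, at 0.241, 0.206 and 0.141 TPM in Col FRI, 0.478, 0.468 and 0.407 TPM in 35S::FCA and 0.635, 0.755 and 0.475 TPM in Col-0. Its call against Col-0 (-1.59 ± 0.32, adjusted p = 0.0134) was lost without Col FRI replicate 2 or 3, and against 35S::FCA it missed the threshold (-1.06, adjusted p = 0.0592).

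Of the 12 cell wall and cuticle genes tested, these 3 were the ones lower against Col-0 and none was higher, with a list median of -0.13. Against 35S::FCA, GAE3 (-0.49, adjusted p = 0.00698), CYP86A2 and GATL6 were lower and none was higher, with a list median of -0.16. The medians over all loci tested were -0.01 in both comparisons. Over all loci tested, 6.04% were higher and 7.22% lower against Col-0, and 7% were higher and 5.92% lower against 35S::FCA. The lists were not tested as groups, and their counts are descriptions.

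Of 21 transcription factors listed, 12 were tested. Against Col-0, 1 was higher and 5 were lower, and the list median was -0.27. Lower there were 14.5% of all flanking loci and 7.22% of all loci tested, and 6.04% of all loci were higher. Against 35S::FCA, 0 were higher and 4 were lower, and the list median was -0.15. Lower there were 12.2% of all flanking loci and 5.92% of all loci tested, and 7% of all loci were higher. IDD12, an INDETERMINATE-domain zinc finger protein, was at 1.41, 1.22 and 1.57 TPM in Col FRI, 2.68, 4.97 and 3.88 TPM in 35S::FCA and 2.7, 3.53 and 3.48 TPM in Col-0. Its log2 fold change was -1.30 ± 0.22 against 35S::FCA and -1.17 ± 0.22 against Col-0 (adjusted p = 0.00482 and 0.0106), and the call against Col-0 was lost without Col FRI replicate 2. ATMYC1, a basic helix-loop-helix protein, was lower against Col-0 (-0.64, adjusted p = 0.00694) and not called against 35S::FCA (-0.20, adjusted p = 0.248).

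The higher one was JLO, a LOB-domain protein that acts at organ boundaries and in embryos. It was at 1.86, 1.27 and 2.17 TPM in Col FRI, 0.76, 0.187 and 0.673 TPM in 35S::FCA and 0.308, 0.288 and 0.654 TPM in Col-0. The Col FRI libraries lay above all 6 others, but the call against Col-0 (2.11 ± 0.56, adjusted p = 0.0356) was lost without any 1 Col FRI library, without 35S::FCA replicate 3 and without Col-0 replicate 1 or 2. Against 35S::FCA JLO did not reach the threshold (1.81 ± 0.55, adjusted p = 0.0561).

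Of 20 genes for plastid proteins, all tested, 4 were higher and 2 lower against Col-0, where 6.04% of all loci tested were higher and 7.22% lower. Against 35S::FCA, 7 were higher and 2 lower, where 7% of all loci were higher and 5.92% lower. The list medians were 0.07 against Col-0 and 0.19 against 35S::FCA. GLB1, the PII protein that senses carbon and nitrogen status, was at 154, 154 and 147 TPM in Col FRI, 97.8, 125 and 117 TPM in 35S::FCA and 136, 126 and 96.4 TPM in Col-0 (0.55 ± 0.07 against 35S::FCA and 0.40 ± 0.07 against Col-0, adjusted p = 0.000868 and 0.00629). PETC, the Rieske protein of the cytochrome b6f complex, was higher against 35S::FCA (0.49 ± 0.07, adjusted p = 0.00182) and not called against Col-0 (0.20, adjusted p = 0.0853). The calls of GLB1 and PETC were lost in limma on log2 TPM. The 2 lower genes were BAM2, a chloroplast beta-amylase (-1.59 ± 0.19 against 35S::FCA and -1.63 ± 0.19 against Col-0, adjusted p = 0.00085 and 0.00138), and DGD2, a digalactosyldiacylglycerol synthase (-0.78 ± 0.15 against 35S::FCA and -0.71 ± 0.15 against Col-0, adjusted p = 0.00826 and 0.0149).

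BAM2 was at 0.662, 0.698 and 0.545 TPM in Col FRI, 1.47, 2.62 and 2.31 TPM in 35S::FCA and 2.37, 2.35 and 1.53 TPM in Col-0, with no overlap. The DGD2 call against Col-0 was lost without any 1 Col FRI library and in limma on log2 TPM. Its call against 35S::FCA was lost in limma on log2(TPM + 1).

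The remaining lists, here and in the next paragraph, gave few calls. Over all loci tested, 13.3% were called against Col-0 (6.04% higher and 7.22% lower). Against 35S::FCA 12.9% were called (7% higher and 5.92% lower). Of 7 transporter and channel genes tested, 1 was lower against Col-0, and 1 was higher and 2 lower against 35S::FCA. The one lower in both was ECA2, a calcium-pumping ATPase, at 0.671, 0.806 and 0.968 TPM in Col FRI, 2.01, 2.41 and 2.25 TPM in 35S::FCA and 2.16, 2.34 and 1.67 TPM in Col-0 (-1.32 ± 0.14 against 35S::FCA and -1.28 ± 0.14 against Col-0, adjusted p = 0.000444 and 0.00108). Among 7 tested genes named for female gametophyte or embryo arrest (UNE and MEE), 1 was higher and 2 lower against Col-0, and 1 was higher against 35S::FCA. The higher one was MEE47 (0.44 ± 0.11 against 35S::FCA and 0.79 ± 0.11 against Col-0, adjusted p = 0.0263 and 0.00302), whose call against 35S::FCA was lost without any 1 Col FRI library and without 35S::FCA replicate 2 or 3. Of 4 GeBP-family genes, DNA-binding proteins of plants, 1 was lower in both comparisons: AT4G00250 (-0.78 ± 0.07 against 35S::FCA and -0.70 ± 0.07 against Col-0, adjusted p = 0.000285 and 0.000989).

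Of 11 defence and stress signalling genes, 1 was lower in both comparisons, MOS6, an importin alpha (-0.47 against 35S::FCA and -0.37 against Col-0, adjusted p = 0.0145 and 0.0391). Of 10 genes of ubiquitin and protein turnover, 0 were called against Col-0 and 1 against 35S::FCA, GRH1, an F-box protein of the auxin receptor family (1.16 ± 0.20, adjusted p = 0.00464). GRH1 was at 2.52, 2.08 and 2.17 TPM in Col FRI, 1.07, 1.16 and 1.08 TPM in 35S::FCA and 1.48, 1.51 and 1.81 TPM in Col-0. In the fit reported none of the 4 DNA repair, 3 ribosomal protein, 8 RNA processing, 2 ankyrin repeat or 1 AOP glucosinolate genes tested was called in either comparison. RPS13A, a ribosomal protein gene of the first bin, had log2 fold changes of -0.04 against 35S::FCA and -0.01 against Col-0.

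Genes outside the lists were called in both directions. AT4G02360 was at 22.7, 24.1 and 23.8 TPM in Col FRI, 13.8, 13.4 and 15.2 TPM in 35S::FCA and 13.5, 10.8 and 10.2 TPM in Col-0 (0.85 ± 0.12 against 35S::FCA and 1.07 ± 0.12 against Col-0, adjusted p = 0.00219 and 0.00125). AT4G00905 was at 7.64, 7.41 and 7.56 TPM in Col FRI, 3.01, 3.9 and 3.73 TPM in 35S::FCA and 3.56, 3.62 and 3.31 TPM in Col-0 (1.22 ± 0.13 against 35S::FCA and 1.15 ± 0.13 against Col-0, adjusted p = 0.000434 and 0.00108). In both genes all Col FRI libraries were above the 6 others. AT4G00905 lies within AT4G00910 on the opposite strand, over 1953 bases, and AT4G00910 had 1 to 6 counts per library.

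On the lower side, AT4G01790, at 13.8, 13.6 and 11.9 TPM in Col FRI, was at 22.2, 26.4 and 25.7 TPM in 35S::FCA and at 28.1, 24.4 and 23.2 TPM in Col-0 (-0.79 ± 0.10 against 35S::FCA and -0.91 ± 0.10 against Col-0, adjusted p = 0.000868 and 0.000986). AT4G01860 (-0.86 against 35S::FCA and -0.85 against Col-0), AT4G02800 (-0.57 against 35S::FCA and -0.65 against Col-0) and AT4G02370 (-0.32 against 35S::FCA and -0.52 against Col-0) were lower with adjusted p = 0.000444 and 0.00101, 0.0007 and 0.000865, and 0.00898 and 0.00139. The calls of AT4G02800 against Col-0 and of AT4G02370 in both comparisons were lost in limma on log2 TPM, and that of AT4G02370 against 35S::FCA also without Col FRI replicate 2. Among the higher genes, FDM2, a protein of RNA-directed DNA methylation (0.51 against 35S::FCA and 0.38 against Col-0, adjusted p = 0.00511 and 0.0217), ANTR2, a phosphate transporter (0.44 against 35S::FCA and 0.42 against Col-0, adjusted p = 0.0124 and 0.0177), and CIP4.1, which binds the light-signalling repressor COP1 (0.71 against 35S::FCA and 0.53 against Col-0, adjusted p = 0.0022 and 0.0104), were called in both. The calls against Col-0 of FDM2 and ANTR2 were lost without any 1 Col FRI library or without Col-0 replicate 1, and that of CIP4.1 without Col FRI replicate 3. The ANTR2 call against 35S::FCA was lost without Col FRI replicate 1 or 3 and without 35S::FCA replicate 3, and all calls of the 3 genes were lost in limma on log2 TPM.

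Next to FRI, the calls of the fit reported in each comparison lay on the left. Over all loci tested, 13.3% were called against Col-0 and 12.9% against 35S::FCA, and 21.7 and 19.1% of the flanking loci. Over all tested loci left of FRI, 26.9 and 28.8% were called, and 25.3 and 19.2% from FRI to the end of bin 10. Whether the sides differ was not tested. Of the 8 nearest tested loci on the left, 3 were called in both comparisons: DGD2, AT4G00600 and EMB3127, at 15.4, 16.4 and 15.6 TPM in Col FRI, 24.8, 29.3 and 27.8 TPM in 35S::FCA and 28.3, 31.9 and 19.3 TPM in Col-0 (-0.66 ± 0.10 against 35S::FCA and -0.68 ± 0.10 against Col-0, adjusted p = 0.00343 and 0.00442). The EMB3127 call against Col-0 was lost in limma on log2 TPM. AT4G00560, NAD-ME2, AT4G00585, AT4G00590 and KEA2, a plastid potassium antiporter, were not called. Of the 8 nearest on the right, none was called in either comparison in the fit reported. Their log2 fold changes against 35S::FCA and against Col-0 were 2.77 and 2.17 for ADF8, an actin-depolymerizing factor. They were 1.68 and 0.58 for AT4G00700, and between -0.78 and 0.22 for the other 6. ADF8 had 15, 8 and 13 counts in Col FRI libraries, 3, 4 and 0 in 35S::FCA libraries and 4, 7 and 0 in Col-0 libraries. All Col FRI libraries were above the 6 others, and ADF8 was called in the contrast of Col FRI with both genotypes at once (adjusted p = 0.0309, edgeR). Under the alternatives ADF8 was called in 1 of 17 fits against Col-0 and in 5 of 16 against 35S::FCA. Also on the right, AT4G00700 was called in 6 of 17 against 35S::FCA, and RH8 and BSK3 in 1 of 18 each. On the left, KEA2 was called in 3 of 18 against 35S::FCA, and AT4G00590 in 1 of 18 in each comparison. AT4G00651 overlaps FRI by 17 bases on the opposite strand.

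**Figure D4:**
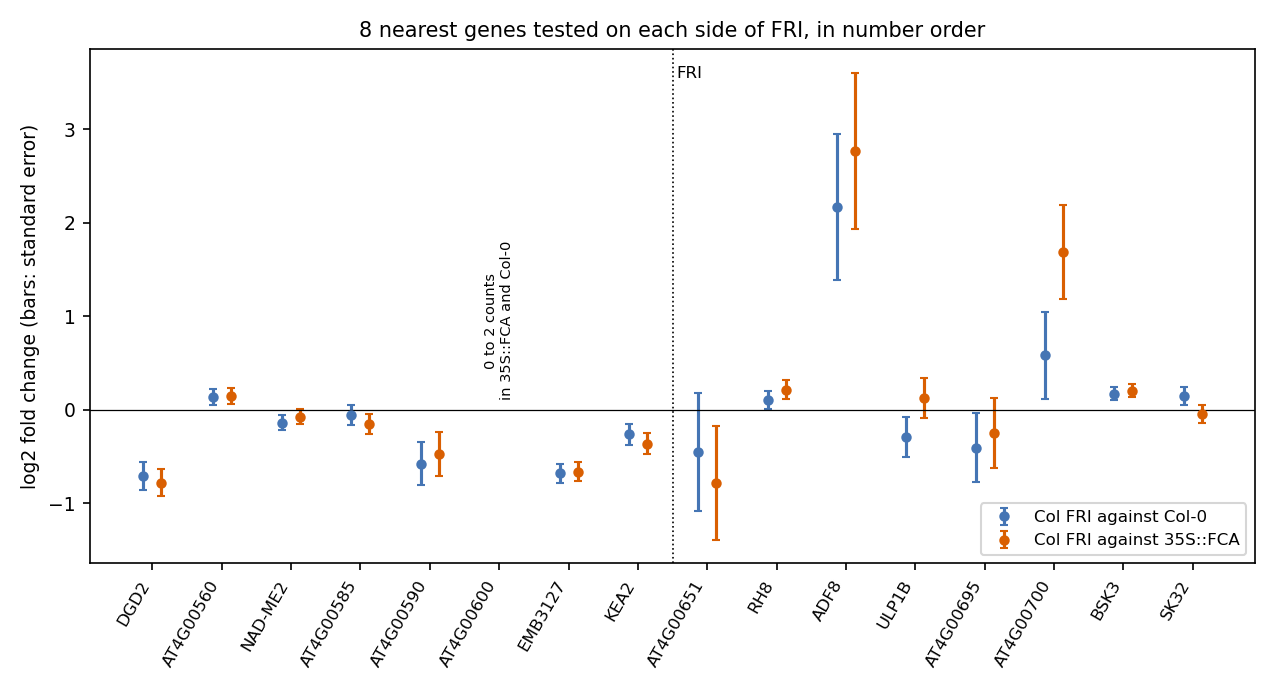
Log2 fold change with its standard error (vertical axis) of the 8 nearest tested loci on each side of FRI in number order (horizontal axis), in Col FRI against Col-0 (blue) and Col FRI against 35S::FCA (orange). DGD2 and EMB3127 on the left lie between -0.78 and -0.66, while none of the 8 on the right was called in the fit reported. AT4G00600 has 0 to 2 counts in 35S::FCA and Col-0 libraries and no point.

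At the far end, calls rested on few libraries. AT4G04190, the last lower locus against Col-0, was at 10.5, 8.96 and 9.18 TPM in Col FRI, 7.97, 11.5 and 10 TPM in 35S::FCA and 14, 13.8 and 10.3 TPM in Col-0, so Col FRI and 35S::FCA overlapped. Its call (-0.36, adjusted p = 0.039) was kept under 5 of 18 alternatives and lost, among others, without any 1 Col FRI library. AT4G04090 was at 1.74, 1.4 and 2.38 TPM in Col FRI, 5.74, 6.33 and 6.51 TPM in 35S::FCA and 3.59, 2.01 and 5.99 TPM in Col-0. It was called against 35S::FCA (-1.62 ± 0.42, adjusted p = 0.031), a call lost without any 1 library of Col FRI or 35S::FCA, and not against Col-0 (-1.06, adjusted p = 0.124). AT4G03292 was likewise called against 35S::FCA (-1.27 ± 0.32, adjusted p = 0.0295), lost without any 1 Col FRI library and without 35S::FCA replicate 1 or 3, and not called against Col-0 (adjusted p = 0.105). AT4G04223 was called in every alternative. At the near end, AT4G00040 was at 0.976, 0.919 and 0.803 TPM in Col FRI, 1.4, 3.1 and 2.77 TPM in 35S::FCA and 1.91, 1.58 and 2.41 TPM in Col-0, with all Col FRI libraries below the 6 others. Its calls (-1.27 ± 0.29 against 35S::FCA and -1.10 ± 0.29 against Col-0, adjusted p = 0.0197 and 0.0365) were lost without any 1 Col FRI library and without 35S::FCA replicate 3, that against 35S::FCA also without 35S::FCA replicate 2 and that against Col-0 also without Col-0 replicate 1 or 3, so the place where the differences start rests on these libraries together.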

How the data were processed

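RNA of early heart embryos was sequenced by the authors from Smart-seq2 libraries, which copy and amplify full-length cDNA, with paired 75-nt reads in 2 runs per library. The values deposited by the authors came from kallisto (TAIR10, version not given in the sources used here) and are estimated counts per transcript, not normalized, and TPM, scaled to one total over all index entries. The deposited transcript lengths were used only for a length-scaled alternative. All libraries were assigned to the same transcripts of one reference, and reads that differ from it in sequence were not examined.

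Estimated counts were summed per locus and rounded. edgeR 4.0.16 in R 4.3.3 (filterByExpr, TMM, quasi-likelihood test, Benjamini-Hochberg adjustment over 18585 loci, all 9 libraries, genotype as the factor, no replicate block) was the test. Each standard error was derived from the fold change and the root of the F statistic. Positions are from TAIR10.1. DESeq2 1.42.0, limma 3.58.1 on log2(TPM + 0.1) and log2(TPM + 1), other filters, the RLE size factors, fits of only the genotypes compared, a replicate block, other thresholds and each library left out were alternatives. On simulated counts of 18585 loci, 100% of 200 loci changed 4-fold were recovered, with 11 false calls; this checks the functions, not the power on these libraries. Depth was 15166826 to 25847613 counts per library, and at most 3 counts was taken as the floor.

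Replicates are biological replicates per the labels, and nothing says how far their plants were separate. The loci and gene lists were chosen with earlier results of these data known. Named were the 12 higher and 12 lower loci with the smallest p in Col FRI against both other genotypes, the first and last called in each direction, the 8 nearest on each side of FRI, loci on or off in one side, those called in 35S::FCA against Col-0, and members of the lists. AT4G01350, GRH1 beyond its list and AT4G03292 were described after their values were seen. Calls of over 2-fold were added to the alternatives after seeing the data.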

Additional observations from a re-analysis of the deposited data

How the results depend on the processing

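Settings changed how many flanking loci were called. Signs were followed only over the 55 named loci, many of them named for calls or small p in the same data. Among these no called fold change changed sign under any alternative run. Uncalled ones changed sign for AT4G00651 against Col-0 (-0.45, up to 0.03) and against 35S::FCA for ULP1B (0.12, down to -0.02), SK32 (-0.05, up to 0.01), AT4G04190 (0.09, down to -0.03) and AT4G03030 (-0.00084, between -0.12 and 0.10), none of which was called under any of them. Of all calls and misses 1776 stayed on their side of the threshold, 152 were lost and 31 gained. In Col FRI against Col-0 the 66 calls became 25 in limma on log2(TPM + 0.1) and on log2(TPM + 1), 24 at an adjusted p under 0.01, 21 over 2-fold and 6 at the strictest thresholds, and 28 to 84 with 1 library left out (28 without Col FRI replicate 2 or 3, 30 without replicate 1, 84 without Col-0 replicate 3). The 84 were 26.8% of flanking loci, where 21.8% of all loci were called, so these shares lay closer than in the fit reported. The 25 in limma were 8.22%, against 2.7 and 2.58% of all loci. In Col FRI against 35S::FCA the 58 calls became 99 with only these genotypes in the fit, 38 and 36 in limma on log2(TPM + 0.1) and log2(TPM + 1), 33 at an adjusted p under 0.01, 20 over 2-fold and 9 at the strictest thresholds, and 33 to 82 with 1 library left out (33 to 35 without each Col FRI library, 34 without 35S::FCA replicate 3). The 99 were 33.8% of flanking loci, against 24.9% of all loci. The 82, without Col-0 replicate 3, were 26.2% against 19.6%, and the 38 and 36 were 12.5 and 11.8% against 5.54 and 5.56%. In 35S::FCA against Col-0 the 3 calls became 7 in DESeq2, 1 with no filter or in limma on log2(TPM + 1), 0 with only these genotypes, with the replicate block and at each of the stricter thresholds, and 0 to 24 with 1 library left out. The shares of all loci in these fits are not given here. In Col FRI against both, the 80 calls became 41 and 40 in limma and 36, 23 and 10 at the stricter thresholds. With 1 library left out they became 38 to 102 (38, 40 and 41 without Col FRI replicates 3, 2 and 1). The 80 were 26.3% of flanking loci against 16.9% of all loci, the 23 were 7.57% against 2.91% and the 10 were 3.29% against 0.479%. For the other counts of this contrast the shares of all loci are not given here.

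Calls of over 2-fold against Col-0, 21 in the fit reported, became 8 in limma on log2(TPM + 1) and 15 to 24 with 1 library left out; against 35S::FCA the 20 became 10 and 15 to 27. In limma on log2(TPM + 1), 2.63% of flanking loci were over 2-fold against Col-0, where 0.689% of all loci were. Against 35S::FCA these shares were 3.29% and 1.2%. The share of bins above the share of all loci was 76.9%, and 30.8% at the strictest thresholds. The count of 96 loci whose libraries did not overlap became 60 on log2(TPM + 0.1), with no share of all loci given on that scale. The causes of these moves were not tested.

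Deviations of same-numbered libraries of different genotypes correlated at -0.11 to 0.27, against -0.33 to 0.27 for different numbers. Pairs with a Col FRI library lay between -0.03 and 0.03. Between 35S::FCA and Col-0, replicates 1, 2 and 3 gave 0.22, 0.27 and -0.11, and different numbers -0.33 to 0.27. The numbers were not taken to pair the libraries, and a deviation shared by 35S::FCA and Col-0 libraries of one number was not tested. With the replicate block, 50 loci were called against Col-0 (49 shared with the 66) and 56 against 35S::FCA (53 shared with the 58). These were 16.4% of flanking loci against 9.48% of all loci, and 18.4% against 10.6%. The block gave 0 calls in 35S::FCA against Col-0 and 71 in Col FRI against both (all 71 among the 80). The shares of all loci for these last counts are not given here. With 3 libraries per genotype and 281 of 585 loci too low to test, an end of the differences between tested loci was not detectable at this depth.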
